A study of Mus musculus with 6 samples.

Results

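The first 70 Mb of mouse chromosome 13 held 857 of the 45595 splicing events in the table, in 198 of 9594 genes. The events were chosen by position, with every exon coordinate below 70,000,000 on build mm10, and that bound was itself chosen from the junction totals of the same 6 libraries, in which most genes beyond it were lower in one set. The libraries come from Neuro-2a cells (N2a), an aneuploid line from a mouse neuroblastoma, and the labels describe 3 hnRNPDL-KO libraries, in which the RNA-binding protein hnRNP DL was knocked out, and 3 wild-type (WT) libraries. No other treatment is given, and the labels do not say whether the knockout line is 1 clone or whether the libraries came from separate cultures, so the spread between libraries may be technical. The table arranges the libraries as set 1 and set 2, 3 in each, without naming the genotype of either, and none is attached to them here. All differences are set 1 minus set 2 and all ratios set 1 over set 2.

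A splicing event is a place where a transcript can be joined in alternative ways: an exon skipped or kept (SE), one of a pair of exons used (MXE), another 3′ or 5′ splice site taken (A3SS, A5SS), or an intron retained (RI). Reads that cross the inclusion and skipping junctions give 2 measures. Their sum, the junction total, follows roughly how much RNA of the gene is present. The sum is not corrected for the number of junctions, so it also depends in part on which form is used. For a retained intron it includes reads of RNA that keeps the intron. The share of the inclusion form, corrected for the number of junctions, is the inclusion level, from 0 to 1. A gene whose RNA changes in amount but not in how it is spliced moves in total and keeps its level.

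The proximal events were 634 skipped exons (73.98% of 857, against 72.6% of the whole table), 89 mutually exclusive exons, 55 alternative 3′ sites, 41 retained introns and 38 alternative 5′ sites. Both ends of all 634 skipped exons are ends of an annotated exon in GENCODE vM21. A mean of 20 or more reads over the 6 libraries was reached by 747 events in 171 genes, of which 168 are protein coding. Each gene was represented by its most-read event, with a median of 167 reads per library against 201 over the 8285 genes measured in the whole table. The other 27 genes had at most 18.3 reads; their log2 ratios ran between -0.69 and 0.97 with a median of -0.01.

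Summed over the measured genes, the libraries held between 4052146 and 5469495 reads, and the table carried 7 of 17 neuroblast and neuron markers fixed for N2a cells, at a summed 454 to 524 CPM (counts scaled to library size by TMM) in set 1 and 508 to 548 CPM in set 2. Dbh, dopamine beta-hydroxylase, was at 1.21 to 4.23 CPM in set 1 and 13.8 to 16.3 CPM in set 2. No astrocyte, fibroblast, myeloid or endothelial marker was among the measured genes, which for genes with no listed event does not show that their RNA is absent. Hnrnpdl itself had 406, 424 and 424 CPM in set 1 and 476, 502 and 503 CPM in set 2, a log2 ratio of -0.24 ± 0.09 (SE). On parts of chromosome 13, library 1 of set 1 did not lie with its fellow libraries, as given below.

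The 8 stretches of coding sequence below carry the findings. Gdi2 belongs to the first genes of the chromosome, whose totals were lower in set 1; Idi1, Gtpbp4 and Larp4b belong to the next ones, whose totals were higher in set 1; Fars2, Slc35b3, Kif13a and Uimc1 hold coding events in which the inclusion levels differed by 0.10 or more, the sets did not overlap and the mean was 50 or more reads. They are cut from GENCODE vM21 transcripts (GRCm38, the assembly of mm10) and run 5′ to 3′ on the gene's strand, with the first and last 6 bases, which the counted junctions join to or divide from the neighbouring exon, in capitals.

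Gdi2, chr13:3548863-3548970, plus strand: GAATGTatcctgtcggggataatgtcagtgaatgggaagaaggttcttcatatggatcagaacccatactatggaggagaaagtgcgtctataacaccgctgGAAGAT
Idi1, chr13:8887485-8887577, plus strand: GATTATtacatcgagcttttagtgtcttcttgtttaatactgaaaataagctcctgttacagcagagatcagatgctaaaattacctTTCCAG
Gtpbp4, chr13:8992645-8992815, minus strand: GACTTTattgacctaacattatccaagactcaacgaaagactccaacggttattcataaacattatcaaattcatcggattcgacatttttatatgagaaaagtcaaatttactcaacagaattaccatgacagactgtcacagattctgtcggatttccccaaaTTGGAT
Larp4b, chr13:9158551-9158802, plus strand: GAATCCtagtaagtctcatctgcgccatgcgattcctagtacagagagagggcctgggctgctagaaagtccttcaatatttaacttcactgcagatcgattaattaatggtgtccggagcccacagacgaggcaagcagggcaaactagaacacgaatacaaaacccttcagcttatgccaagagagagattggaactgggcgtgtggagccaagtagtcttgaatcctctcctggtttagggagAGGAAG
Fars2, chr13:36410079-36410230, plus strand: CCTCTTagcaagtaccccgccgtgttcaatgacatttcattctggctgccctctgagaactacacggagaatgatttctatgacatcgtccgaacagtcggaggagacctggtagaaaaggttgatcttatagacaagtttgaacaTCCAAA
Slc35b3, chr13:38955649-38955820, minus strand: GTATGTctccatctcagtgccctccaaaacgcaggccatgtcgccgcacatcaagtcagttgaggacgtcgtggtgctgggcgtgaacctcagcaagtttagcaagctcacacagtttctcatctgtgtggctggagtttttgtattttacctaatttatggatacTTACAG
Kif13a, chr13:46760663-46760767, minus strand: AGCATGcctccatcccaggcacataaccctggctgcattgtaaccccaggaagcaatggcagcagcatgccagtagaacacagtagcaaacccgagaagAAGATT
Uimc1, chr13:55076302-55076407, minus strand: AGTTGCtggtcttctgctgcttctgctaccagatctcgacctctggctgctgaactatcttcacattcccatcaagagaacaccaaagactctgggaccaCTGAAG

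The exons of Gdi2 (108 bases), Idi1 (93), Gtpbp4 (171), Larp4b (252) and Kif13a (105) are whole numbers of codons long, whereas those of Fars2 (152 bases) and Uimc1 (106) are not. The Slc35b3 sequence is the 172 bases that a transcript gains when it uses the farther of 2 donor sites, and it too is not a whole number of codons. It opens with GTATGT, the bases that stand at the start of the intron when the nearer donor is used.

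Over the 171 measured genes, junction totals showed no shift of the whole stretch, with a median log2 ratio of 0.04 (interquartile range -0.13 to 0.20) beside 0.00 over all 8285 genes. The beginning of the chromosome, up to 10 Mb, was an exception in both directions: 10 neighbouring genes were lower in set 1 and the 6 that follow were higher in set 1. These values chose the region's bound and are given as a description. In bulk RNA, fewer cells of a type and less RNA per cell cannot be told apart, and the table holds no measure of DNA. At an adjusted p of 0.05 in limma's fit over all genes, 8 of the 171 were called against a background of 1.03% of all genes tested, a comparison from which nothing is read here because the same contrast chose the bound. The count was 20 without library 1 of set 1, 2 without its library 2, 4 without its library 3, 2 without library 2 of set 2 and 3 without its library 3. All 3 set 1 libraries lay above all 3 set 2 libraries for 26 of the 171 genes, where the share over all genes tested was 6.89%. They lay below for 14 of the 171, where the share over all genes tested was 7.04%. The same contrast chose the bound, so these counts too are a description.

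**Figure D1:**
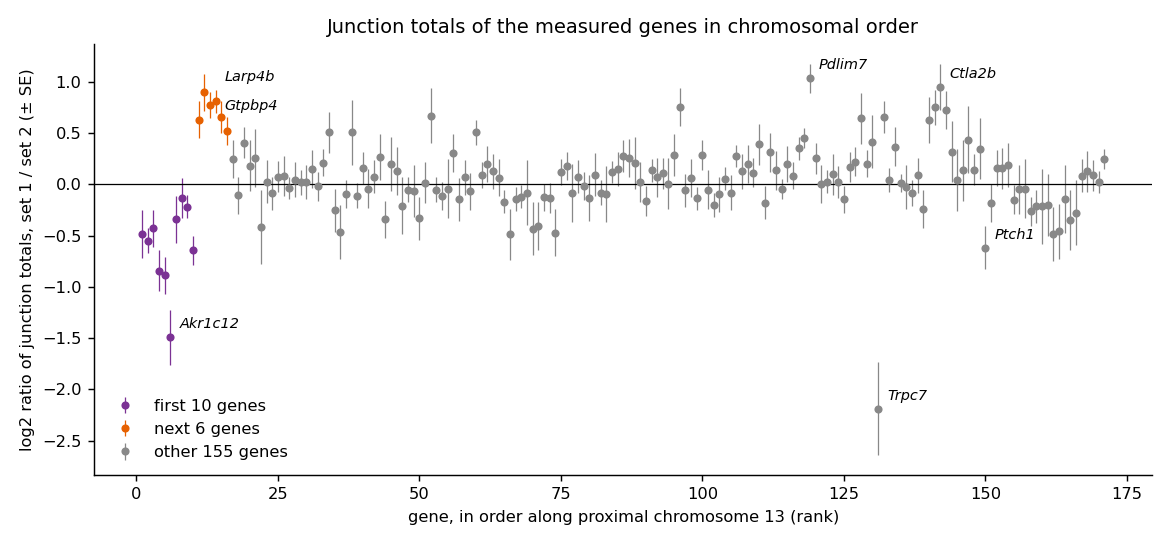
Each point is 1 of the 171 measured genes in its order along proximal chromosome 13 (x axis, rank) with its log2 ratio of junction totals, set 1 over set 2, and the standard error (y axis). The first 10 genes lie below 0, the next 6 above 0, and the other 155 spread around a median of 0.06.

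The first 10 genes, which start between 3478230 and 6579768 and were grouped after their values were seen, all had negative ratios, from -1.49 to -0.13, with a median of -0.52. Gdi2 (chr13:3538063-3567871), which keeps Rab GTPases in their GDP-bound form, had 435, 321 and 308 CPM in set 1 and 499, 537 and 504 CPM in set 2, so that the sets did not overlap and the log2 ratio was -0.55 ± 0.12 (SE). Net1, an exchange factor for the small GTPase RhoA, had 24.98, 24.2 and 15.2 CPM in set 1 and 37.99, 35.5 and 42.0 CPM in set 2, a log2 ratio of -0.84 ± 0.20. All 3 set 1 libraries again lay below all 3 of set 2. With the reads of all Net1 events summed, the log2 ratio was smaller, at -0.53. Pfkp (chr13:6579768-6648777), a phosphofructokinase of glycolysis, had 360, 236 and 246 CPM in set 1 and 398, 440 and 459 CPM in set 2, a log2 ratio of -0.64 ± 0.14.

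The lowest of them were a pair of aldo-keto reductases, enzymes that reduce carbonyl groups with NADPH. Akr1c12 had 30.8, 18.8 and 10.9 CPM in set 1 and 51.9, 58.2 and 52.1 CPM in set 2, a log2 ratio of -1.49 ± 0.27. Akr1c13 had 26.4, 23.7 and 17.4 CPM in set 1 and 39.7, 44.7 and 41.3 CPM in set 2, a log2 ratio of -0.89 ± 0.18. These 2 genes are close relatives in a cluster and may share reads, so their separate values are uncertain. Not every gene here moved as far: Pitrm1, the mitochondrial protease that degrades targeting peptides, had 125, 143 and 134 CPM in set 1 and 143, 161 and 163 CPM in set 2, and its sets overlapped. Klf6, a Krüppel-like transcription factor, had overlapping sets and a log2 ratio of -0.13 ± 0.20. The sets did not overlap for 5 of the 10 genes, all of them with set 1 lower, where the share over all genes tested was 7.04%. The 10 were grouped with these values in view, so the count is a description.

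The next 6 genes, from Wdr37 (start 8802968) to Zmynd11 (end 9765330), also grouped after their values were seen, all had positive ratios, from 0.52 to 0.90, with a median of 0.72. None of them had overlapping sets. Over all genes tested, set 1 lay wholly above set 2 in 6.89%, and the count here is a description. Gtpbp4 (chr13:8966331-8996083), a nucleolar GTPase that assembles the large ribosomal subunit, had 406, 485 and 555 CPM in set 1 and 243, 286 and 312 CPM in set 2, a log2 ratio of 0.78 ± 0.13. Larp4b, a La-related protein that binds mRNA, had 215, 263 and 261 CPM in set 1 and 143, 137 and 139 CPM in set 2, a log2 ratio of 0.81 ± 0.11. Idi1, the isopentenyl diphosphate isomerase of sterol synthesis, had 164, 290 and 168 CPM in set 1 and 111, 105 and 105 CPM in set 2, a log2 ratio of 0.90 ± 0.18.

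Library 2 of set 1 was far above the other 2 for Idi1, and all 3 were still above set 2. Zmynd11, a chromatin reader of histone methylation, had 114, 144 and 147 CPM in set 1 and 81.0, 97.5 and 102 CPM in set 2. The remaining 2 genes, Wdr37 and Dip2c, had log2 ratios of 0.63 ± 0.18 and 0.66 ± 0.15.

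**Figure D2:**
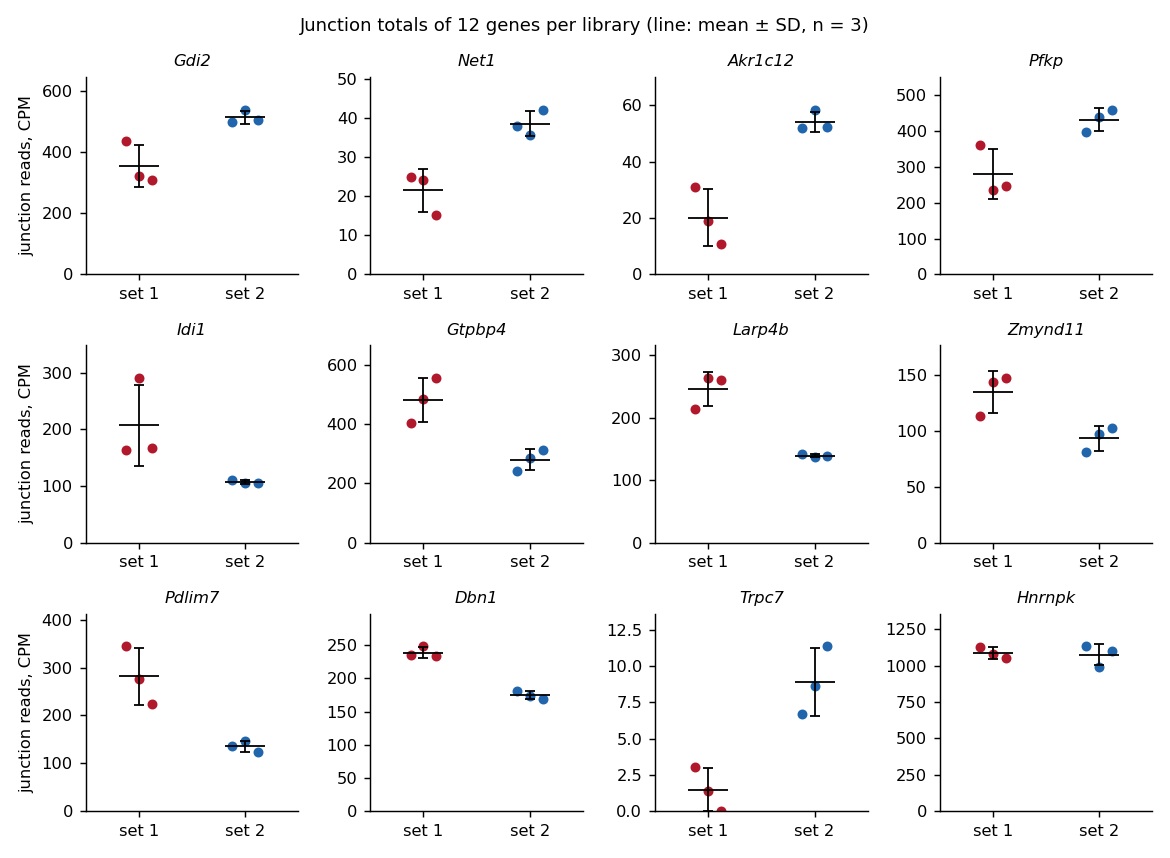
Junction totals in CPM (y axes, from 0) of 12 genes in the 3 libraries of set 1 (red, left) and of set 2 (blue, right), with the mean and SD as black lines. Set 1 lies below set 2 in Gdi2, Net1, Akr1c12, Pfkp and Trpc7, above it in Idi1, Gtpbp4, Larp4b, Zmynd11, Pdlim7 and Dbn1, and the sets overlap in Hnrnpk.

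Nothing was measured between these groups: no gene with a mean of 20 reads lies between the end of Pfkp at 6648777 and the start of Wdr37 at 8802968, nor between Zmynd11 and Mtr, which starts at 12182712. Taken event by event, 65 of the 67 events in the first 10 genes had negative ratios and 51 of the 51 events in the next 6 had positive ones; events of 1 gene share reads and are not independent. Some genes of the first group overlap on opposite strands (Gdi2 with Fam208b, Pitrm1 with Pfkp), and whether the reads carry strand is not given in the sources used here.

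Library 1 of set 1 was nearer to set 2 than its fellow libraries in both groups. As medians over genes of the log2 deviation from the set 2 mean, the 3 libraries of set 1 stood at -0.36, -0.59 and -0.82 in the first 10 genes, and those of set 2 at -0.07, 0.06 and 0.01. In the next 6 genes set 1 stood at 0.55, 0.81 and 0.86 and set 2 at -0.07, 0.05 and 0.04. On the distal part of the chromosome, from 70 Mb, 116 genes had a median log2 ratio of -0.60, and library 1 of set 1 stood at -0.19 beside -0.73 and -0.86 in the other set 1 libraries. Without that library the median was -0.65 in the first 10 genes and 0.87 in the next 6, and all 16 genes kept their sign. The groups were formed with these signs in view, so this is a description.

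**Figure D3:**
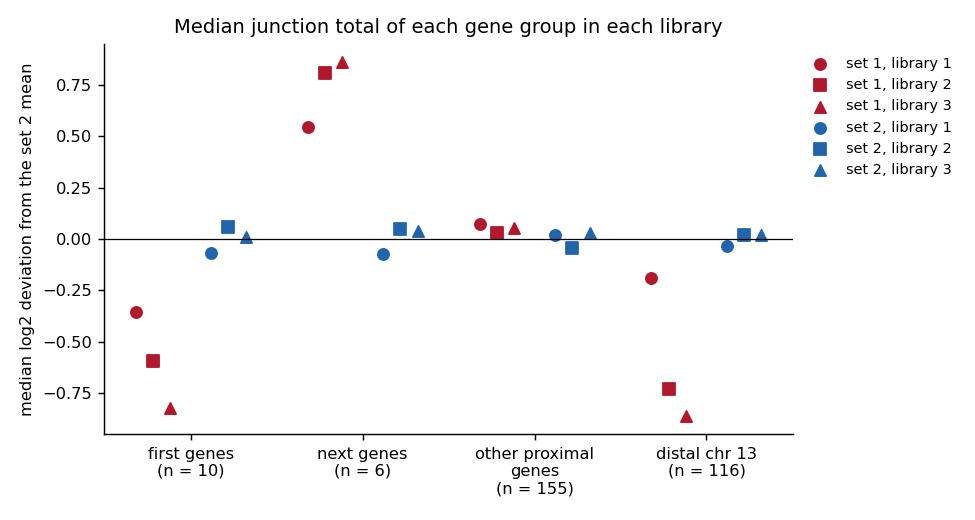
Median log2 deviation of each gene group from the set 2 mean (y axis) in each library, with set 1 in red to the left of set 2 in blue. Set 1 is below set 2 in the first 10 genes and on distal chromosome 13, above it in the next 6 genes, and close to it in the other 155 proximal genes; of the set 1 libraries, library 1 (red circle) is nearest to 0 in the first, second and last group.

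From 12 to 70 Mb the 155 genes had a median close to equal, with a log2 ratio of 0.06 (interquartile range -0.10 to 0.20). Library medians were 0.08, 0.03 and 0.05 in set 1 and 0.02, -0.04 and 0.03 in set 2. Of the 155 genes, 92 (59.4%) had positive ratios, against 49.8% on the other chromosomes. All 3 set 1 libraries lay above set 2 for 20 and below it for 9, where the shares over all genes tested were 6.89% and 7.04%. In bins of 10 Mb after the first, the medians were 0.04 (10 to 20 Mb, 16 genes), 0.02 (20 to 30 Mb, 12 genes), -0.01 (30 to 40 Mb, 22 genes), -0.08 (40 to 50 Mb, 25 genes), 0.09 (50 to 60 Mb, 48 genes) and 0.06 (60 to 70 Mb, 32 genes). None of these bins had a shift of the size seen in the first 10 Mb, where the 2 groups together gave a median of -0.28 over 16 genes.

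At the bound, the last 5 genes inside were Mtrr, Fastkd3, Papd7, Nsun2 and Med10, with log2 ratios of 0.08 ± 0.16, 0.13 ± 0.20, 0.09 ± 0.15, 0.02 ± 0.11 and 0.25 ± 0.10. Of these, Med10, a subunit of the Mediator complex, had 253, 246 and 228 CPM in set 1 and 197, 202 and 213 CPM in set 2. The first 5 outside were Ice1, Lpcat1, Clptm1l, Tert and Slc12a7, with log2 ratios of -0.43 ± 0.17, -0.65 ± 0.21, -1.003 ± 0.19, -1.99 ± 0.36 and 0.00 ± 0.28. Tert, the catalytic subunit of telomerase, was at 2.82, 0.71 and 0.96 CPM in set 1 and 9.27, 7.25 and 8.40 CPM in set 2. Tert and Slc12a7 had few reads. The last measured gene inside ends at 69816104 and the first outside begins at 70551707.

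On the other chromosomes, runs of 6 neighbouring genes with medians this far from 0 were few. Distal chromosome 13 was left out of the comparison. Its 116 genes had a median log2 ratio of -0.60 and a lower quartile of -0.80, so low runs are not particular to the first genes. Of 7903 overlapping runs on the other chromosomes, 6 had a median at or above the 0.72 of Wdr37 to Zmynd11, up to 1.29, on chromosomes 3 and 8. The lowest run on proximal chromosome 13, among the first genes, had a median of -0.70, and the lowest run on any other chromosome, on chromosome 2, had -0.67. The proximal runs were singled out after their values were seen, and this comparison is a description with no test.

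Within the stretch from 12 to 70 Mb some genes lay far from the median, some of them next to each other. Pdlim7, a cytoskeletal protein with PDZ and LIM domains, had 344, 276 and 224 CPM in set 1 and 136, 147 and 123 CPM in set 2, a log2 ratio of 1.03 ± 0.14. Dbn1, which encodes the actin-binding protein drebrin and lies close to Pdlim7, had 235, 248 and 234 CPM in set 1 and 181, 174 and 169 CPM in set 2, a log2 ratio of 0.45 ± 0.10. Neither gene had overlapping sets, and 22 of the 22 events of Pdlim7 and 8 of the 8 of Dbn1 had positive ratios. Events of 1 gene share reads and are not independent, so these counts are a description. Grk6, the measured gene before Dbn1, had a log2 ratio of 0.35 ± 0.11 with sets apart. Ddx41, the measured gene after Pdlim7, had 0.25 ± 0.15 with overlapping sets. Nrn1, which encodes the neurite growth protein neuritin, had 117, 114 and 131 CPM in set 1 and 92.5, 78.8 and 82.5 CPM in set 2.

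Trpc7, a cation channel of the transient receptor potential family, was the lowest, with read totals of 15, 6 and 0 in the set 1 libraries and of 36, 37 and 46 in those of set 2, a log2 ratio of -2.19 ± 0.45 on the log2(CPM + 1) scale, which understates changes of genes with few reads. Ptch1, the Hedgehog receptor, had 10.9, 14.3 and 14.0 CPM in set 1 and 20.2, 17.3 and 24.5 CPM in set 2. Both genes were lower in every set 1 library than in any of set 2. Gadd45g, a stress-induced growth arrest gene, was higher, with 39.3, 42.5 and 48.7 CPM in set 1 and 32.4, 20.6 and 24.0 CPM in set 2.

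Ctla2a, Ctla2b and AC160962.1, in a cluster between 60895350 and 60936625, had log2 ratios of 0.72 ± 0.19, 0.95 ± 0.22 and 0.75 ± 0.17. The first 2 encode proteins like the propeptides of cathepsins; AC160962.1 overlaps both, so the 3 values share a source and are uncertain as separate genes. Ctla2a had 174, 300 and 334 CPM in set 1 and 164, 152 and 154 CPM in set 2. Library 1 of set 1 was close to set 2 here too.

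Of the 10 genes with the most reads, Gdi2, Gtpbp4, AC160962.1 and Pfkp, described above, had sets apart, and the sets of the other 6 overlapped. Over all genes tested, set 1 lay wholly above set 2 in 6.89% and wholly below it in 7.04%. The same contrast chose the bound, so this count is a description. Hnrnpk, which encodes another protein of the hnRNP family and had the most reads of the 171, had 1131, 1077 and 1050 CPM in set 1 and 1132, 993 and 1102 CPM in set 2, a log2 ratio of 0.02 ± 0.09. Prelid1, a mitochondrial lipid transfer protein, Psma2, a subunit of the proteasome core, and Nsun2, an RNA cytosine methyltransferase, had ratios of -0.04 ± 0.10, -0.04 ± 0.11 and 0.02 ± 0.11. Eef1e1, of the multi-tRNA synthetase complex, had -0.17 ± 0.11. The sixth, H2afy, is given below with the histone genes.

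By role, 20 RNA processing genes had a median log2 ratio of 0.02 and 12 positive values; Gtpbp4 and Larp4b were the 2 called, both higher in set 1. The 20 measured metabolic and mitochondrial genes had a median of 0.01 with 10 positive, and Idi1 was the 1 called. Of 9 neuronal and cytoskeletal genes 6 were positive, with a median of 0.25, and Pdlim7 and Dbn1 were called. With each of the 6 libraries left out in turn, Larp4b and Pdlim7 were called 6 times of 6, Gtpbp4 3 times, Idi1 2 times and Dbn1 1 time. The 17 genes of chromatin, cell cycle and genome maintenance had a median of 0.08, the 16 of the secretory pathway and protein turnover 0.05, and the 10 of signalling and transcription 0.22, with none called in these. The 14 zinc finger genes, a multigene family whose members may share reads, had 5 positive values and a median of -0.17, with none called. The only histone gene measured, H2afy, which encodes the variant macroH2A, had a log2 ratio of 0.20 ± 0.13. Over all 8285 genes 49.4% were positive and 1.03% were called, so in lists this short the absence of a call says little. The members were chosen with these values known, so the counts describe the lists and nothing more.

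Inclusion levels stayed close in the 2 sets all along the stretch. The median difference over the 747 events was 0.0003, the interquartile range lay between -0.0073 and 0.0083, and 14 events (1.87%, against 2.63% of the 39419 events measured in the whole table) differed by 0.10 or more. The moderated quasi-binomial test was fitted over all 39419 events, with calls at an adjusted p of 0.05 and a change of 0.10. It called 0 of the 747, against a background of 0.0279%. Only 11 of all 39419 events were called, so 0 calls among the 747 say little about the stretch. By this test 22 of the 747 (2.95%) had an unadjusted p under 0.05, against 3.8% of all events. Limma on logit levels called 0 of all 39419 events, so its 0 calls among the 747 say nothing about the stretch. By that test 14 of the 747 (1.87%) had an unadjusted p under 0.05, against 3.3% of all events. All 3 libraries of one set lay above all 3 of the other for 41 events, 25 with set 1 above and 16 with set 1 below, against 5.55% of all events. The levels come from the same reads that chose the bound and are given as a description.

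Most events used 1 form almost alone: the level averaged above 0.9 in 497 events, below 0.1 in 93 and between in 157. Of 551 skipped exons 441 were above 0.9, whereas 68 of 84 mutually exclusive pairs lay between. Only 412 of the 747 events had 5 or more reads in all on the rarer form, so that in the others a small change in level could not be seen at this depth.

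**Figure D4:**
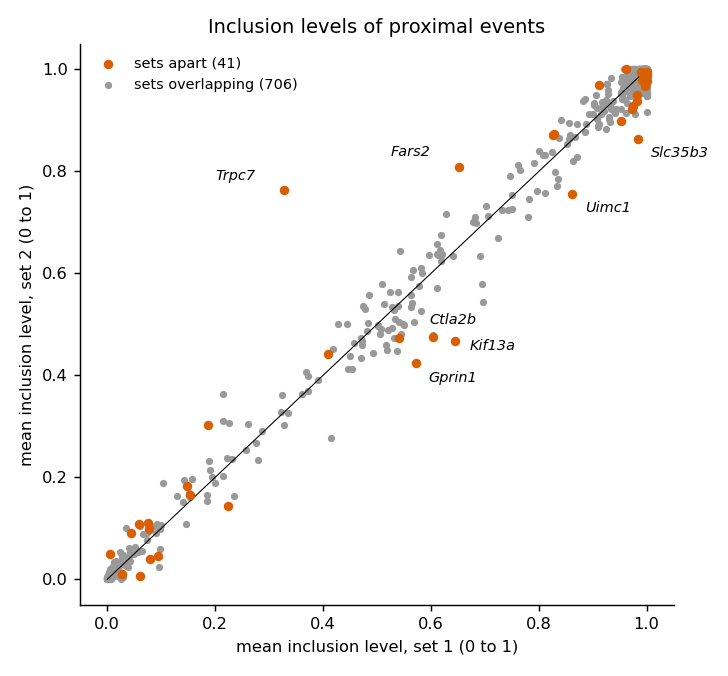
Mean inclusion level of the 747 proximal events in set 1 (x axis) and set 2 (y axis), with the line of equal levels; orange points are the 41 events whose sets do not overlap and grey points the other 706. Most points lie on the line at its ends, and the named events are among those farthest from it.

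In the 16 genes whose totals differed as a block, the median differences in level were close to 0, at 0.0003 and 0.001. None of the 67 events of the first 10 genes and none of the 51 of the next 6 differed by 0.10 or more. The share over all events measured was 2.63%, so a count of 0 in groups this small says little. The rarer form had 5 or more reads in all in 40 of the 67 events and 27 of the 51. The Gdi2 exon printed above was included at 0.999, 1.0 and 1.0 in set 1 and at 1.0 in each library of set 2. The Gtpbp4 exon was included at 0.945, 0.963 and 0.965 in set 1 and 0.968, 0.943 and 0.957 in set 2, and the Larp4b exon at 0.972, 0.982 and 0.973 in set 1 and 0.985, 0.976 and 0.958 in set 2. The sets overlapped in both.

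A further pair of mutually exclusive exons in Larp4b, with 556 reads on average, stood at 0.606, 0.613 and 0.641 in set 1 and 0.599, 0.664 and 0.65 in set 2. A Pfkp pair stood at 0.485, 0.528 and 0.608 in set 1 and 0.496, 0.527 and 0.49 in set 2. The table decides which exon of a pair is the included one. The widest gap with sets apart in these genes was in Akr1c13, where the exon at 4192295 to 4192435 stood at 0.207, 0.268 and 0.195 in set 1 and 0.19, 0.127 and 0.116 in set 2, a difference of 0.079.

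The authors' deposited table, at its adjusted p under 0.05 and a change of 0.10 or more, called 4 of the 857 proximal events, against 0.645% of all 45595, and 2 of them had a mean of 20 or more reads. Gprin1, which encodes a protein of neurite outgrowth, had a 100-base UTR exon (chr13:54742009-54742108) with an adjusted p of 0.0233 in the authors' deposited table. It was included at 0.555, 0.6 and 0.562 in set 1 and 0.439, 0.391 and 0.44 in set 2, with 120 to 168 reads per library. The means were 0.572 ± 0.024 and 0.423 ± 0.028 (SD, n = 3 each), and this event also had the smallest quasi-binomial p of the stretch, 0.0127 unadjusted and 0.745 adjusted by Benjamini-Hochberg over all events.

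Slc35b3, a transporter of the sulfate donor PAPS into the Golgi, had an adjusted p of 0.00504 in the authors' deposited table for the alternative donor printed above. The farther site was used at 1.0, 0.952 and 1.0 in set 1 and 0.881, 0.86 and 0.852 in set 2. The difference of 0.12 rests on 0, 1 and 0 reads of the shorter form in set 1 and 4, 6 and 4 in set 2. The other 2 calls of the authors' deposited table, in Ryr2 and Platr25, had means of 4.5 and 4.67 reads, and their sets overlapped.

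**Figure D5:**
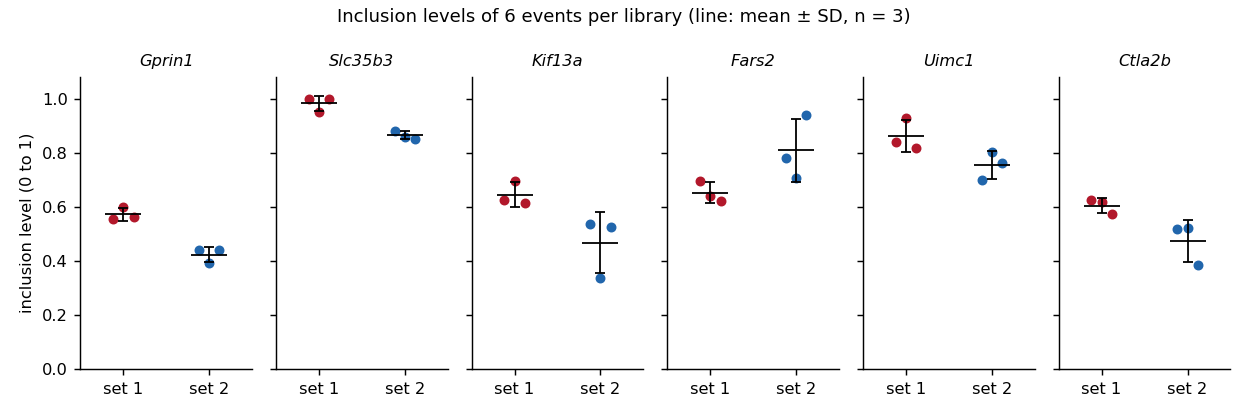
Inclusion level (y axis, 0 to 1) of 6 events in each library of set 1 (red, left) and set 2 (blue, right), with mean and SD as black lines. Set 1 is above set 2 in Gprin1, Slc35b3, Kif13a, Uimc1 and Ctla2b and below it in Fars2, and the spread within set 2 is wide in Kif13a, Fars2 and Ctla2b.

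Other events with sets apart had wider spreads. The 105-base coding exon of Kif13a, a kinesin motor of vesicle transport, was included at 0.625, 0.697 and 0.613 in set 1 and 0.537, 0.337 and 0.527 in set 2, a difference of 0.178. A different exon of the gene (chr13:46750702-46750773) was nearly always skipped, at 0.0, 0.016 and 0.0 in set 1 and 0.036, 0.069 and 0.042 in set 2. The 152-base exon of Fars2, the mitochondrial phenylalanyl-tRNA synthetase, went the other way, at 0.697, 0.64 and 0.62 in set 1 and 0.782, 0.708 and 0.938 in set 2, a difference of -0.157 that library 3 of set 2 widens.

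Uimc1, a ubiquitin-binding DNA repair protein, had its 106-base exon at 0.841, 0.927 and 0.817 in set 1 and 0.701, 0.804 and 0.762 in set 2. A Ctla2b exon stood at 0.624, 0.616 and 0.572 in set 1 and 0.518, 0.522 and 0.385 in set 2, with the doubt on shared reads given above. Below these, Simc1, Zkscan3, a retained intron of Fastkd3 and 4833439L19Rik had differences between -0.058 and -0.045 with set 1 below set 2 throughout. The Fastkd3 intron was retained at 0.023, 0.072 and 0.036 in set 1 and 0.081, 0.115 and 0.077 in set 2. Outside the rule for named events, and chosen after its value was seen, a pair of exons in Trpc7 had the widest difference, -0.434, at 0.556, 0.429 and 0.0 in set 1 and 0.622, 0.933 and 0.733 in set 2. It rests on 18, 7 and 2 reads in set 1 and 37, 30 and 45 in set 2.

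Several deeply read events with middle levels had close values in the 2 sets. A Hnrnpk pair with 3685 reads on average was at 0.447, 0.451 and 0.475 in set 1 and 0.451, 0.477 and 0.464 in set 2. A Dek pair, in the gene of a chromatin-binding protein, was at 0.535, 0.565 and 0.59 in set 1 and 0.506, 0.571 and 0.593 in set 2. An H2afy pair was at 0.48, 0.524 and 0.503 in set 1 and 0.519, 0.462 and 0.509 in set 2. The sets overlapped in all 3.

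Pdlim7 and Dbn1 had higher totals in set 1. In the event of each gene named for its middle level, the sets overlapped too. The other events of these genes are not described here. A Pdlim7 pair stood at 0.56, 0.53 and 0.413 in set 1 and 0.549, 0.49 and 0.459 in set 2. An alternative 3′ site of 3 bases in Dbn1 stood at 0.314, 0.329 and 0.341 in set 1 and 0.275, 0.3 and 0.33 in set 2. A 15-base coding exon of Ssr1, a subunit of the translocon-associated protein complex, was lower in set 1 on average, at 0.279, 0.179 and 0.217 in set 1 and 0.271, 0.362 and 0.284 in set 2, with the sets overlapping.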

How the data were processed

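RNA of 6 N2a libraries (3 hnRNPDL-KO, 3 WT) was made into libraries with an Illumina RNA kit, per the labels' protocols. The submitters' processing notes list HISAT2 2.1.0, Bowtie2 2.2.3, HTSeq 0.6.0 and mm10, with no roles. The deposited table has the layout of rMATS output. Per the file headers, each event has junction read counts, inclusion levels as fractions, p-values, adjusted p and the difference of mean levels, in lists of 3 libraries. Nothing ties its 2 sets to a genotype, and the libraries in a set carry no replicate number. Levels recomputed from the counts matched those deposited to within 0.0005.

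From these, each gene's total was the sum of inclusion and skipping reads of its most-read event, kept at a mean of 20 or more. Totals were scaled by TMM library sizes and fitted as log2(CPM + 1) with limma 3.58.1 (R 4.3.3, mean-variance trend), 3 against 3 libraries over all 8285 genes; log2 ratios and SE come from this fit. The count test planned for these totals was not run, although the split counts are whole numbers, and this fit took its place. Levels were tested on 39419 events with a moderated quasi-binomial test written for this purpose (adjusted p under 0.05, change of 0.10 or more, Benjamini-Hochberg over all events). Both tests were run on simulated data with a fixed spread and no library standing apart. This does not show how they behave where library 1 of set 1 stands apart. Tools and filters varied are given at the end.

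Named genes are the 10 with the most reads, the 8 highest and 8 lowest ratios, the 5 on each side of the bound and up to 5 per role list; named events are the authors' calls, the 6 highest and 6 lowest differences with sets apart (mean of 50 reads), the 2 smallest p and deeply read middle levels. The members, lists and rules were chosen with earlier results of these data known. Gene positions are from GENCODE vM21, 1-based.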

Additional observations from a re-analysis of the deposited data

How the results depend on the processing

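No paired analysis was possible because the table's columns carry no replicate numbers. The DESeq2 and edgeR tests named among the alternatives were not run, so the calls have not been compared with those of a count model; pseudocounts of 0.5 and 5 and the groups of neighbouring genes were added after seeing the data.

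The median log2 ratio of the 171 genes was 0.043. It was 0.072 with a mean count of 100 or more and 0.015 with the bound at 80 Mb, and leaving out 1 library gave 0.011 to 0.052. The first 10 genes (-0.517) ranged from -0.652 to -0.474 without 1 library. The next 6 (0.717) ranged from 0.613 to 0.869, and were at 0.508 with every event counted separately. The genes from 12 to 70 Mb (0.057) ranged from 0.026 to 0.064. The sign of every one of the first 16 genes held under all alternatives that keep 1 value per gene and in which the gene was measured. The groups were formed with these signs in view and the alternatives reuse the same libraries, so the kept signs are a description and no support.

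The count of 8 called genes ranged from 2 to 20 without 1 library: 20 without library 1 of set 1, 4 without library 3, 2 without library 2, and in set 2 it was 2 without library 2 and 3 without library 3. Larp4b and Pdlim7 were called under all 14 alternatives run for them, the other 6 under 7 to 11. With 1 library left out in turn, Akr1c12 and Gtpbp4 were called in 3 of 6 fits, Idi1 in 2, and Akr1c13, Dbn1 and Trpc7 in 1. These fits reuse the contrast that chose the bound, so the counts show how the calls depend on the settings and are no support for a gene. Of 694 values for the 50 named genes, 27 changed sign, all in genes within 0.127 of 0. The 0 called events became 2 by the authors' adjusted p and were 0 under every other alternative. Among these alternatives, limma on logit levels called 0 of all events measured, so its result was not particular to the stretch. The main test called only 11 of all 39419 events, so its 0 calls say little about the stretch as well. The median difference in level was 0.0 to 0.0007 without 1 library. Few reads limit the events with a nearly unused form and genes such as Trpc7, and the causes of these movements were not tested.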
